A study of Saccharomyces cerevisiae with 72 samples.

Results

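The 5 sirtuin genes of budding yeast, SIR2, HST1, HST2, HST3 and HST4, were followed through acute overexpression of the transcriptional repressors Yox1 and Yhp1. Their rows were taken by name from 2 tables of transcript levels that together listed 6874 genes in 72 RNA sequencing libraries. They were chosen by the control-subtracted change of HST4 after induction, a value of these same libraries, so its fall is described here with no p-value, and where the call rule explained below is named for an induction of a sirtuin gene it is a label of size and supports nothing. The induction contrasts of the other 4 genes are treated in the same way. The reference annotation names all 5 products as histone deacetylases and SIR2, HST3 and HST4 as NAD-dependent ones.

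Each of 8 strains was sampled before (0 min) and 20 and 60 min after addition of 1 µM estradiol, with 3 libraries per strain and time, from asynchronous cultures in rich YM-1 medium with 2% dextrose. All strains, controls included, were MATa ura3Δ0 his3Δ1 lypΔ0 can1Δ::STE2pr-SpHIS5 and carried the estradiol-responsive activator Z3EV under the ACT1 promoter. In the 4 inducible strains the activator drove YOX1, yox1-9A, YHP1 or yhp1-13A from the Z4 promoter, each tagged with 3V5 and named here by its protein. Yox1-9A and Yhp1-13A lack the sites at which the cell cycle kinase Cdk1 phosphorylates these proteins. In each matched control strain the same tagged allele stood at its own promoter and the Z4 promoter drove HO, so controls saw the same estradiol. Every genotype was represented by a single strain in the labels.

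Sirtuins use NAD+ to remove acetyl groups from lysines, which ties them to the metabolic state of the cell. Sir2 is the founding member and silences the mating-type cassettes, the telomeres and the ribosomal DNA. Hst1 works with the repressors of meiotic genes, Hst2 is largely cytoplasmic, and Hst3 and Hst4 remove the acetyl group from histone H3 at H3K56, a mark of newly assembled chromatin. Yox1 and Yhp1 are homeodomain repressors that act with the MADS-box protein Mcm1 on genes transcribed around the end of mitosis and the start of the next cycle.

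The level of a gene is given as TPM, a share of all transcripts of a library that is scaled for gene length. Changes were computed on log2(TPM + 1), and a control-subtracted change is the change of an inducible strain from 0 min minus the same change of its control strain. A gene met the call rule where its adjusted p in the limma fit was under 0.05 and its absolute log2 difference was above 0.58, which is about 1.5-fold. The induced genes checked the labels. In libraries taken 20 or 60 min after estradiol, YOX1 was at 440.4 to 1245 TPM in the inducible Yox1 and Yox1-9A strains, against 19.2 to 165.9 TPM in the 24 other libraries of that table, and YHP1 was at 737.3 to 914.0 TPM in the inducible Yhp1 and Yhp1-13A strains, against 19.9 to 85.2 TPM. The MATa transcripts MFA2 and STE2 had medians of 5036 and 520.1 TPM over the 72 libraries. Of 4 MATα transcripts, MF(ALPHA)1 and STE3 stayed at or below 1.34 and 4.37 TPM, and MF(ALPHA)2 and SAG1 were present at 4.41 to 11.3 TPM and 14.7 to 28.1 TPM. Of 5 MATa transcripts, 3 did not overlap between the 12 libraries with induced Yox1 or Yox1-9A and the 24 others of that table, and were lower when induced, with medians of 149.8 against 5500 TPM for MFA2, 302.6 against 1509 TPM for MFA1 and 16.8 against 64.9 TPM for STE6. STE2 overlapped slightly, at 127.9 to 430.6 TPM against 429.1 to 630.4 TPM, and BAR1 overlapped fully, at 50.8 to 188.9 TPM against 93.4 to 186.2 TPM. The share of all genes without overlap was not computed, here or for the separations of libraries given below. The part of these shifts of MATa transcripts in the sirtuin values was not tested. YHP1 also fell in these inductions, with control-subtracted log2 differences of -3.17, -3.22, -2.80 and -3.40 in the 4 Yox1 and Yox1-9A contrasts, all called lower.

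The upstream sequence of HST4 is shown because it holds matches to the elements through which Mcm1 and homeodomain repressors are known to act. HST4 (YDR191W) lies on the plus strand of chromosome IV at 842337 to 843449 (build R64, RefSeq sequence) in a single coding exon, and the 200 bases before its start codon are chrIV:842137-842336. Capitals mark a homeodomain core followed by an Mcm1 long form.

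HST4: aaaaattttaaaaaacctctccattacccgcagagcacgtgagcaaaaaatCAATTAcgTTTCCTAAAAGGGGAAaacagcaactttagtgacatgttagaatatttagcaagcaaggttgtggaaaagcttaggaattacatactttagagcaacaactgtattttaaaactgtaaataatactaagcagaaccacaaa

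Motifs were searched on both strands in the 400 bases before the start codon of 6001 genes. The Mcm1 core was CC and GG with 6 bases between them, the Mcm1 long form was TTNCC and GGNAA with 6 bases between them and so contains a core, the homeodomain core was TAATTA or TAATTG, and the forkhead core was GTAAACA. A core was present in 39.7% of these windows, the long form in 1.6%, the homeodomain core in 43.9% and the forkhead core in 8.52%. The HST4 window held an Mcm1 long form at 141 to 126 bases before the start codon and a homeodomain core at 149 to 144 bases, with 2 bases between them. A long form with a homeodomain core within 20 bases of it was found in 14 of the 6001 windows, or 0.233%. This pair was not among the planned motifs and follows the arrangement at HST4, so its share is a description only. HST4 also had a second homeodomain core at 334 to 329 bases and the only forkhead core among the sirtuin genes, at 384 to 378 bases, which lies inside the coding region of the neighbour RVB1. Likewise a pair of the HST1 cores, at 226 to 212 bases, lies inside the neighbour RTG1.

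All 5 sirtuin windows held an Mcm1 core, but the long form was found only upstream of HST4 and HST3. The HST3 match lay at chrXV:378052-378067, without a homeodomain core in its window. HST2 held cores alone, among them a pair that overlap by all but 1 base at 320 to 310 bases before the start codon. The matched stretches are set side by side with 5 bases on each side, or for HST2 with 5 before and 4 after the capitals, and with the Mcm1 letters in capitals.

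HST4: ttacgTTTCCTAAAAGGGGAAaacag

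HST3: tgctgTTACCACAAAGGGTAAaacgt

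HST2: tatttCCCAAAGTGGGcata

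**Figure D1:**
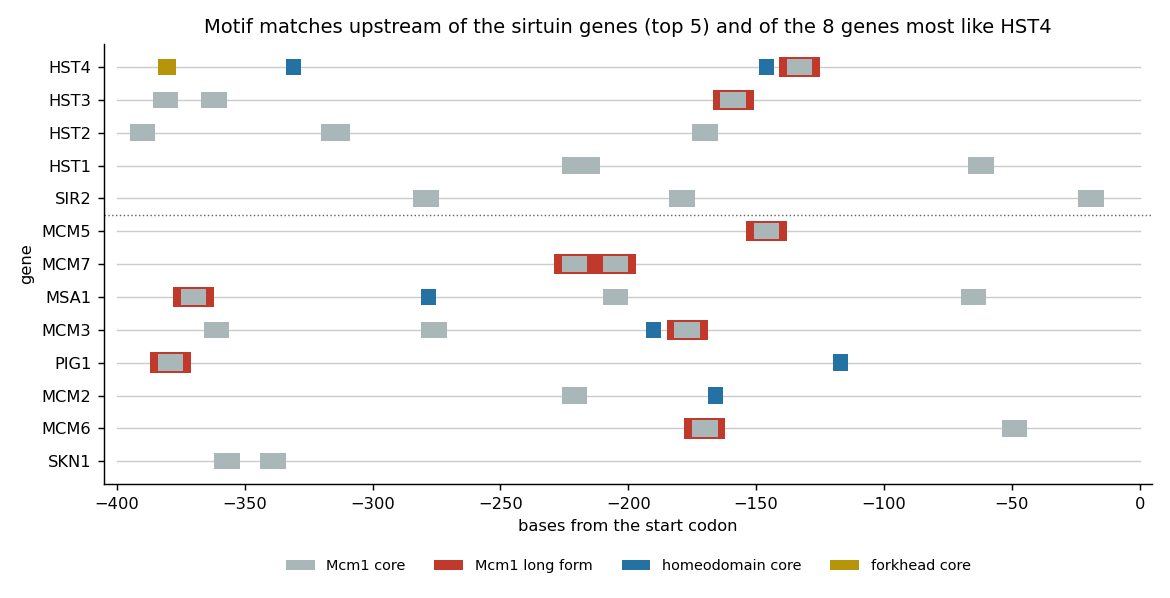
Positions of the 4 motifs in the 400 bases before the start codon (x axis, bases from the start codon) of the 5 sirtuin genes and, below the dotted line, of the 8 genes whose levels follow HST4 most closely. HST4 and MCM3 are the genes of this map in which a homeodomain core stands 2 bases from an Mcm1 long form.

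HST4 was the lowest of the 5 transcripts in all 72 libraries. Over the 24 libraries of the yox1 table without induced Yox1 or Yox1-9A, its median was 13.0 TPM, and over the 24 corresponding libraries of the yhp1 table it was 11.3 TPM. HST2 was the highest gene in every library, with 72.8 to 136.1 TPM, and HST1 the second, with 42.1 to 78.3 TPM. HST3 (18.9 to 49.2 TPM) lay above SIR2 (19.9 to 45.7 TPM) in 23 of 36 libraries of the yox1 table and in 34 of 36 of the yhp1 table, so these neighbours in the order were not separated in the yox1 table. The other neighbours in the order kept their places in 36 of 36 libraries of each table. The tables were normalised separately, and levels are set beside each other across them without a test.

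After induction of Yox1, HST4 fell within 20 min to about the level of 1 TPM and stayed there. In the inducible Yox1 strain HST4 had 16.6, 14.4 and 18.3 TPM at 0 min, 1.18, 1.69 and 1.31 TPM at 20 min, and 1.08, 1.64 and 0.900 TPM at 60 min. Its control strain had 13.0, 11.5 and 14.7 TPM at 0 min, 14.9, 16.03 and 17.7 TPM at 20 min, and 10.8, 12.6 and 13.9 TPM at 60 min. The highest induced library was thus below the lowest library of any other Yox1 group. The mean TPM of the inducible strain was 11.8-fold below its 0 min mean at 20 min and 13.6-fold below it at 60 min. The control-subtracted log2 difference was -3.16 ± 0.23 (SE) at 20 min and -2.92 ± 0.23 at 60 min. Since 1 TPM was added before taking logs, these differences understate the change in TPM. In bulk RNA from asynchronous cells, fewer cells at the cycle stage that transcribes HST4 and less HST4 RNA per cell cannot be told apart.

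With Yox1-9A the fall of HST4 was of similar size. In the inducible Yox1-9A strain HST4 had 15.6, 11.8 and 12.7 TPM at 0 min, 1.22, 0.959 and 0.779 TPM at 20 min, and 0.813, 0.557 and 0.589 TPM at 60 min. The corresponding control had 14.2, 8.13 and 8.92 TPM at 0 min, 15.8, 11.5 and 13.0 TPM at 20 min, and 9.94, 7.96 and 9.34 TPM at 60 min. No induced library overlapped another group here either. The means were 13.5-fold and 20.5-fold below the 0 min mean at 20 and 60 min, and the control-subtracted differences were -3.21 ± 0.23 and -2.97 ± 0.23. The difference between the alleles was not tested, because the contrasts chose the gene. The median of all genes was 0.13 at 60 min of Yox1-9A and within 0.07 of 0 in the other inductions. HST4 ranked 11th and 17th from the lowest of 6255 genes at 20 and 60 min of Yox1, and 9th and 20th at the same times of Yox1-9A.

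**Figure D2:**
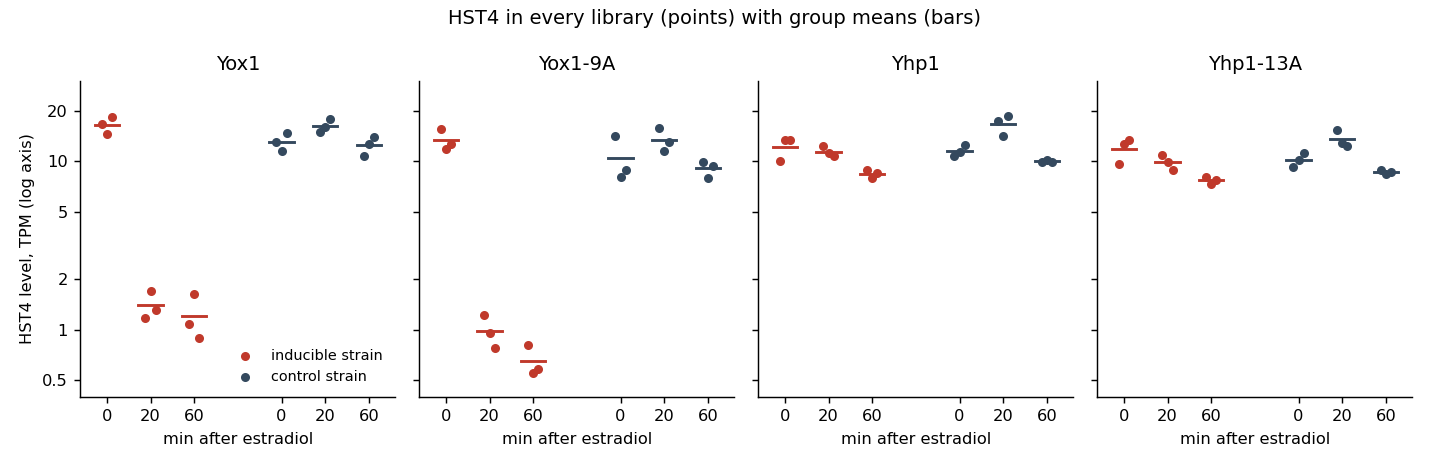
HST4 level in TPM on a log axis in each library, by time after estradiol, in the inducible strain (left, red) and its control (right, dark) of each allele. Points are libraries and bars are group means of 3 libraries. The 12 libraries with induced Yox1 or Yox1-9A lie between 0.557 and 1.69 TPM, and every other library lies at 7.37 TPM or above.

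With Yhp1 the difference in HST4 was far smaller, and most of the control-subtracted difference at 20 min came from a higher level in the control strains. In the inducible Yhp1 strain HST4 had 10.1, 13.3 and 13.3 TPM at 0 min, 12.4, 11.2 and 10.7 TPM at 20 min, and 8.89, 7.95 and 8.56 TPM at 60 min. The Yhp1 control had 10.8, 11.4 and 12.4 TPM at 0 min, 17.4, 14.1 and 18.7 TPM at 20 min, and 9.92, 10.2 and 9.97 TPM at 60 min. The 20 min libraries of the inducible strain overlapped its own 0 min libraries, whereas all 3 control libraries at 20 min were above all 3 at 0 min. The inducible strain changed by -0.08 ± 0.11 on the log2 scale at 20 min and the control by 0.49 ± 0.11. The control-subtracted difference was -0.58 ± 0.16 (95% interval -0.91 to -0.25) at 20 min and -0.29 ± 0.16 (-0.62 to 0.04) at 60 min.

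The Yhp1-13A strains gave similar values. HST4 averaged 11.9 ± 2.0, 9.89 ± 0.99 and 7.73 ± 0.38 TPM at 0, 20 and 60 min in the inducible strain, and 10.2 ± 0.98, 13.5 ± 1.6 and 8.64 ± 0.21 TPM in its control (SD, n = 3 each). The control-subtracted differences were -0.60 ± 0.16 at 20 min and -0.33 ± 0.16 at 60 min. None of the 4 Yhp1 or Yhp1-13A values met the call rule, although without replicate 1 of the inducible Yhp1-13A strain at 0 min, the library with 9.67 TPM, the 20 min value was -0.74 and met it. HST4 ranked 64th of 6230 genes at 20 min of Yhp1 and 62nd at 20 min of Yhp1-13A, and the all-gene medians were -0.01 in each. At 60 min all 4 inducible strains had every HST4 library below every 0 min library, and so did 2 of 4 controls. For that change of the inducible strains 9.21%, 13.7%, 6.68% and 7.22% of all genes met the call rule (Yox1, Yox1-9A, Yhp1 and Yhp1-13A). At an unadjusted p under 0.05 in limma the counts were 2401 and 2809 of 6255 genes and 2523 and 2453 of 6230 genes.

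Among the 5 sirtuin genes, 1 met the call rule at 20 min of Yox1 and 1 at 20 min of Yox1-9A, where 2.56% and 2.35% of all genes tested met it, and 2 met it at 60 min of each protein, where 2.75% (Yox1) and 4.33% (Yox1-9A) of all genes did. The called genes were HST4 at 20 min, and HST4 with HST2 at 60 min, all lower. None was called for Yhp1 at 20 or 60 min, against 0.0963% and 0.0803% of all genes, or for Yhp1-13A at 20 or 60 min, against 0.353% and 0.498%. Since these contrasts chose the members, nothing is read from the counts. The 20 and 60 min values of an allele share the 0 min libraries of both strains.

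**Figure D3:**
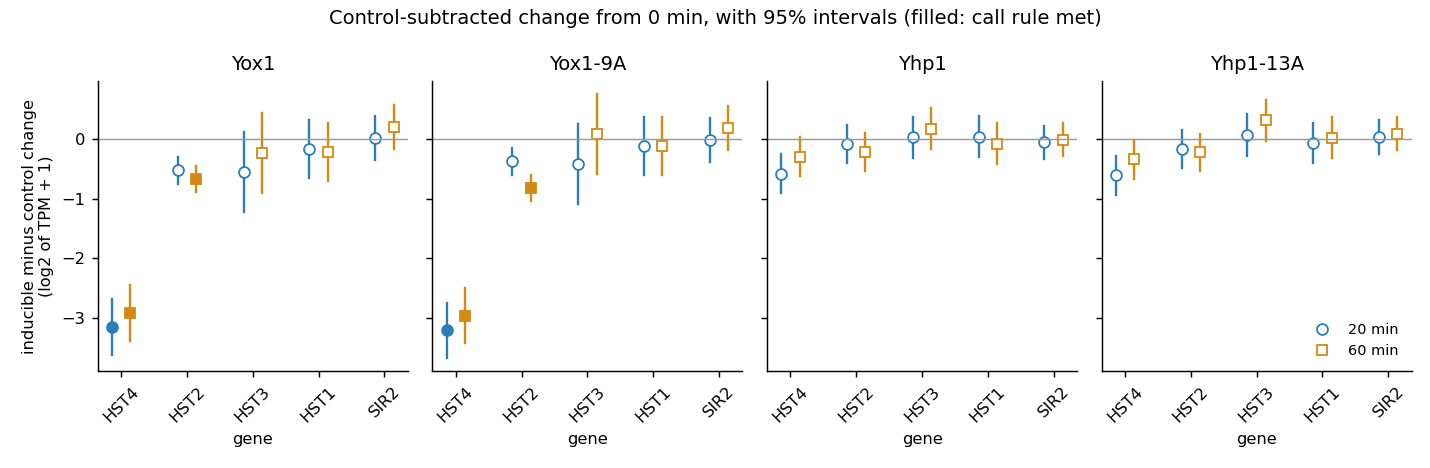
Control-subtracted change from 0 min (y axis, log2 of TPM + 1) of the 5 sirtuin genes at 20 min (circles) and 60 min (squares), with 95% intervals, for each induced protein. Filled symbols met the call rule: HST4 at both times of Yox1 and Yox1-9A, and HST2 at 60 min of both.

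HST2 (YPL015C, chromosome XVI, 525810 to 526883, minus strand) was the other sirtuin gene that met the call rule with Yox1, at 60 min alone. It fell by much less than HST4 and to a level that stayed high. At 20 min of Yox1 HST3 differed by about as much as HST2, at -0.55 ± 0.33, and neither was called. In the inducible Yox1 strain HST2 had 126.1, 122.4 and 123.3 TPM at 0 min, 90.7, 83.7 and 77.1 TPM at 20 min, and 89.5, 83.4 and 76.2 TPM at 60 min. The Yox1 control ranged from 96.0 to 109.2 TPM at 0 min, from 96.8 to 109.8 TPM at 20 min, and from 108.4 to 116.1 TPM at 60 min. All 6 induced libraries lay below all 9 control libraries and below the 3 uninduced ones, with the share of all genes that separate so not computed. The control-subtracted difference was -0.52 ± 0.11 at 20 min, short of the fold threshold, and -0.67 ± 0.11 at 60 min. The inducible strain itself changed by -0.561 ± 0.077 and -0.575 ± 0.077, both short of the threshold, and the control by -0.041 ± 0.077 and 0.090 ± 0.077, so the 60 min label rests in part on the control.

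With Yox1-9A the same gene had 96.4, 93.8 and 90.9 TPM at 20 min and 87.1, 72.8 and 74.8 TPM at 60 min in the inducible strain, after 120.5, 123.5 and 136.1 TPM at 0 min. Its control ranged from 101.5 to 106.3 TPM at 0 min, from 93.3 to 102.7 TPM at 20 min and from 107.5 to 121.9 TPM at 60 min, so the strains overlapped at 20 min and were apart at 60 min. The control-subtracted difference was -0.37 ± 0.11 at 20 min and -0.82 ± 0.11 at 60 min, and only the later one met the call rule. The inducible Yox1-9A strain itself changed by -0.430 ± 0.077 and -0.691 ± 0.077, and its control by -0.061 ± 0.077 and 0.130 ± 0.077. HST2 averaged 93.7 and 78.2 TPM at 20 and 60 min of Yox1-9A, and 83.8 and 83.04 TPM at the same times of Yox1. This contrast of alleles was not tested. With Yhp1 and Yhp1-13A the differences of HST2 lay between -0.22 and -0.08.

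HST2 shares its upstream region with CIP1, a gene for an inhibitor of cyclin-dependent kinase that starts 663 bases away on the other strand, and CIP1 was lower in the same inductions. CIP1 averaged 42.9 ± 2.7, 22.3 ± 1.3 and 19.8 ± 1.9 TPM at 0, 20 and 60 min in the inducible Yox1 strain, and 36.9 ± 5.4, 43.6 ± 2.7 and 42.5 ± 4.3 TPM in its control (SD, n = 3 each). Its control-subtracted difference was -1.16 ± 0.17 (limma adjusted p = 1.4e-05) at 20 min and -1.28 ± 0.17 (adjusted p = 2.27e-06) at 60 min of Yox1. For Yox1-9A it was -0.90 ± 0.17 (adjusted p = 0.000717) and -1.21 ± 0.17 (adjusted p = 4.18e-06). The Yhp1 and Yhp1-13A values of CIP1, from -0.56 to -0.38 with a standard error of 0.42, did not pass the test.

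CIP1 was the only one of the 10 flanking genes that was called in an induction. RVB1, which encodes a subunit of chromatin remodelling ATPases and stands 341 bases from HST4 on the other strand, differed by -0.46 ± 0.19 at 20 min of Yox1 (limma adjusted p = 0.392) and by -0.45 ± 0.19 at 20 min of Yox1-9A (adjusted p = 0.461). RVB1 was at 51.2 to 57.3 TPM in the induced Yox1 libraries at 20 min, against 66.9 to 72.8 TPM in the control at that time. NUP42, which faces HST4 from its other end and encodes a nucleoporin, differed by -0.06 ± 0.19 at 20 min of Yox1. Strand was not stated for the counting, so reads of overlapping transcripts of neighbours cannot be told apart.

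HST3, the partner of HST4 in H3K56 deacetylation, did not meet the call rule in any induction. In the inducible Yox1 strain HST3 had 47.5, 33.4 and 48.3 TPM at 0 min, 30.1, 26.6 and 32.2 TPM at 20 min, and 26.3, 35.97 and 46.7 TPM at 60 min. The Yox1 control had 48.3, 29.3 and 43.1 TPM at 0 min, 41.3, 36.4 and 43.8 TPM at 20 min, and 28.5, 41.5 and 48.3 TPM at 60 min. At 20 min the induced libraries were below the control libraries, and at 60 min the strains overlapped. At each time the same-numbered library was the lowest in both strains, although no label pairs them. The fit does not pair libraries, so a shift shared by both strains is counted as error here. The control-subtracted difference was -0.55 ± 0.33 (95% interval -1.22 to 0.12) at 20 min and -0.23 ± 0.33 at 60 min. For Yox1-9A it was -0.41 ± 0.33 and 0.09 ± 0.33.

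The wide error of HST3 came from libraries of the same group that lay far apart. In the inducible Yox1-9A strain at 0 min HST3 had 48.7, 28.6 and 26.5 TPM, and HST1 had 77.6, 56.7 and 49.98 TPM in the same libraries. HST1 and HST3 were correlated over the 36 libraries of the yox1 table (Pearson r = 0.87) and of the yhp1 table (r = 0.78), which share their library preparation and scaling. Across the yox1 table HST4 was related to HST2 (r = 0.79) more than to HST3 (r = 0.58), HST1 (r = 0.47) or SIR2 (r = 0.04), and in the yhp1 table, where HST4 moved little, it was not related to HST2 (r = -0.20). These coefficients describe 36 libraries of 12 groups each and mostly restate which genes changed with induction.

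In the Yhp1 strains HST3 was higher than in the controls at 60 min, with no overlap of libraries. HST3 averaged 35.6 ± 2.8 TPM in the inducible Yhp1 strain and 28.6 ± 4.0 TPM in its control, and 38.9 ± 2.3 TPM in the inducible Yhp1-13A strain and 29.6 ± 0.47 TPM in its control (SD, n = 3 each). The control-subtracted differences were 0.18 ± 0.17 and 0.32 ± 0.17, and neither met the call rule. How many of all genes separate in this way was not computed, so nothing is read from the lack of overlap. HST3 of the Yhp1 and Yhp1-13A controls had changed by -0.48 ± 0.12 and -0.50 ± 0.12 from 0 to 60 min, short of the threshold. The Yhp1 value was -0.62 without replicate 2 at 0 min and -0.59 without replicate 1 at 60 min, and the Yhp1-13A value was -0.64 without replicate 2 at 0 min, all past the call rule.

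HST1, the deacetylase of the Sum1 and Set3 repressor complexes, and SIR2 showed no control-subtracted change as large as the threshold. HST1 lay between -0.21 and 0.05 over the 8 inductions, with standard errors of 0.17 to 0.24, and SIR2 between -0.05 and 0.20, with standard errors of 0.14 to 0.18. The 95% interval of HST1 at 60 min of Yox1, from -0.70 to 0.28, still held differences past the threshold in the lower direction.

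SIR2 was lower at 20 min than at 0 min in inducible and control strains alike, by less than the fold threshold. At 20 min every SIR2 library was below every 0 min library of its strain in 8 of 8 strains. In the inducible Yox1 strain SIR2 had 35.9, 38.7 and 40.7 TPM at 0 min, 28.4, 33.7 and 29.3 TPM at 20 min, and 33.1, 45.7 and 42.3 TPM at 60 min. The control strains changed at 20 min by -0.35 ± 0.13 (Yox1), -0.52 ± 0.13 (Yox1-9A), -0.47 ± 0.10 (Yhp1) and -0.44 ± 0.10 (Yhp1-13A), and none reached the fold threshold with all libraries. The Yox1-9A value was -0.63 without replicate 1 at 20 min and -0.58, just past the threshold before rounding, without replicate 2 at 0 min, and both met the call rule. Of all genes tested, 15.6%, 16%, 19.2% and 17.4% met the call rule in the same 4 control changes. In the 4 inducible strains at 20 min 17.4%, 19%, 16.1% and 16.6% did. At an unadjusted p under 0.05 in limma, the control changes had 2778 and 2817 of 6255 genes and 3136 and 3021 of 6230 genes. Shifts at 20 min were thus common, and the share of all genes whose libraries separate as those of SIR2 do was not computed. By 60 min the changes of SIR2 were nearer to 0, at -0.14 ± 0.13, -0.25 ± 0.13, -0.26 ± 0.10 and -0.24 ± 0.10 in the same controls, where 3.87%, 3.71%, 7.37% and 7.29% of genes were called.

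HST4 took the opposite course in the controls at 20 min. Its level changed by 0.29 ± 0.16, 0.36 ± 0.16, 0.49 ± 0.11 and 0.37 ± 0.11 on the log2 scale in the Yox1, Yox1-9A, Yhp1 and Yhp1-13A controls. In 3 of 4 controls every 20 min library was above every 0 min library. In the same changes 7.99%, 7.1%, 7.58% and 7.08% of all genes tested were called higher, and the counts at unadjusted p are those given for SIR2. None of the HST4 values met the call rule with all libraries, but the Yox1-9A value was 0.589 without replicate 1 at 0 min and the Yhp1 value 0.61 without replicate 2 at 20 min or 0.596 with libraries shifted to a common median, each past it. These values form part of the subtraction that chose HST4 and are given without a test. At 60 min they were -0.07 ± 0.16, -0.15 ± 0.16, -0.18 ± 0.11 and -0.22 ± 0.11.

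**Figure D4:**
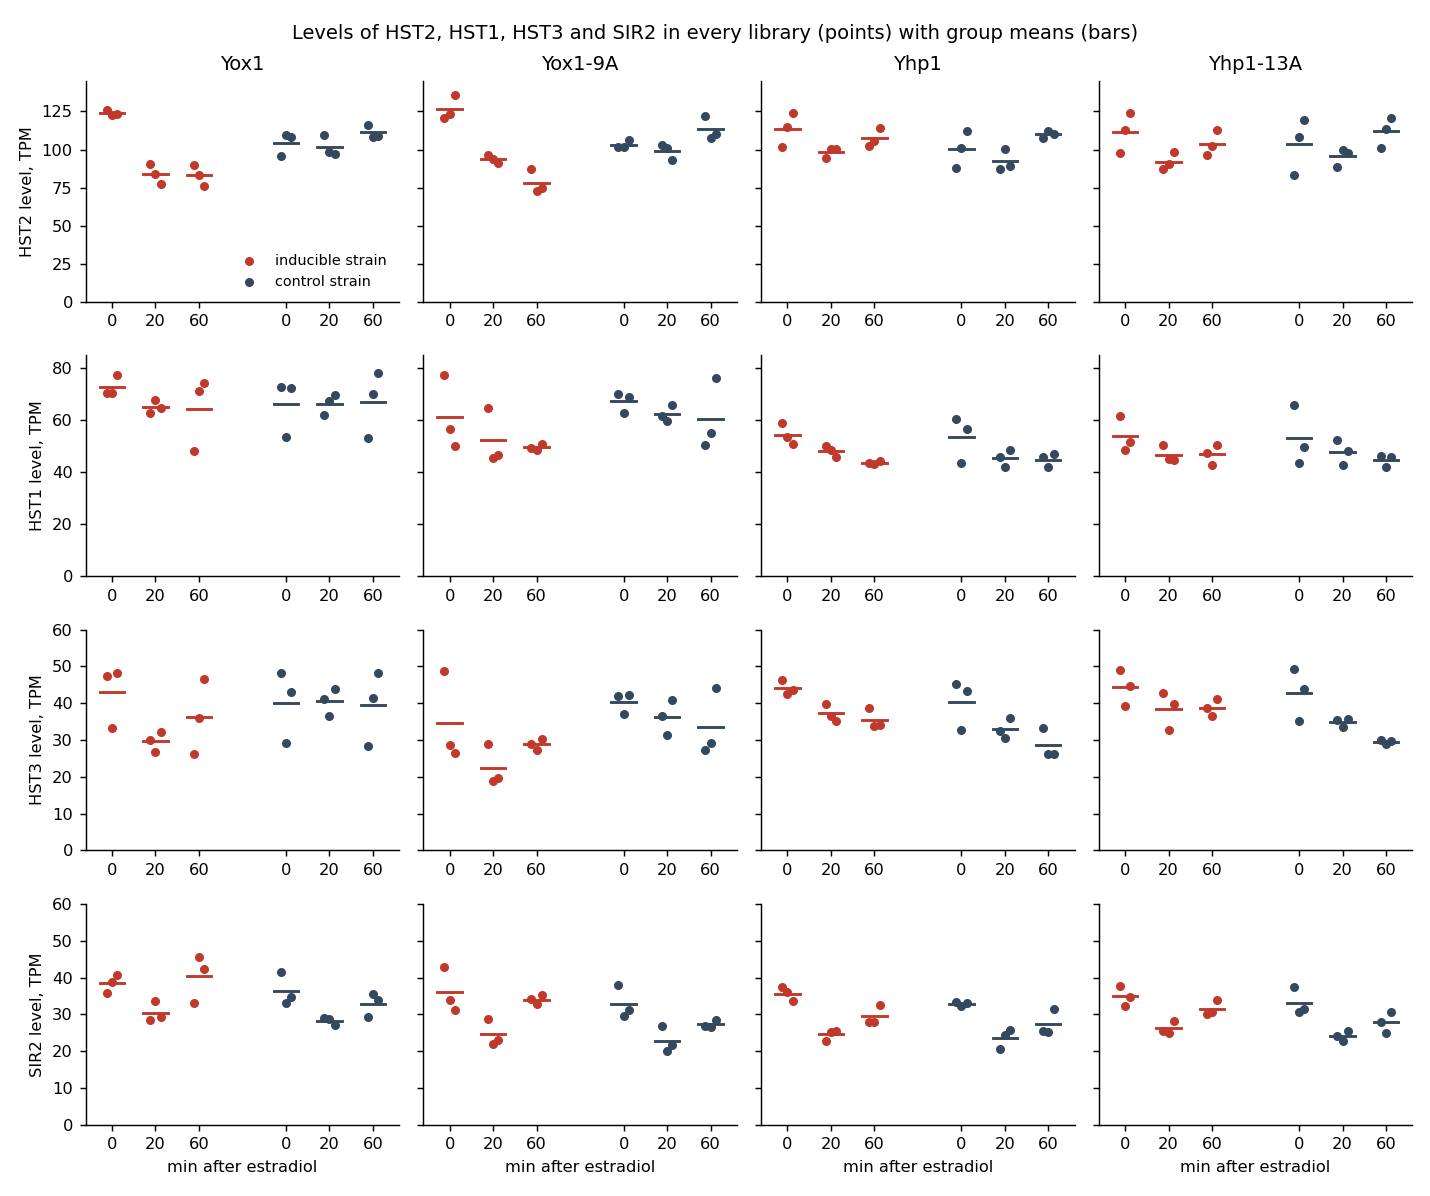
Levels in TPM (y axes from 0) of HST2, HST1, HST3 and SIR2 in each library by time after estradiol, with the inducible strain on the left (red) and its control on the right (dark) for each allele. Points are libraries and bars group means of 3 libraries. HST2 of the Yox1 and Yox1-9A strains drops after induction, and SIR2 dips at 20 min in both strains of every allele.

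Before estradiol the inducible and control strains differed in the repressor that the controls made from its own promoter. YOX1 at 0 min was at 19.2 to 31.4 TPM in the inducible Yox1 and Yox1-9A strains, against 98.5 to 125.8 TPM in their controls. The log2 difference was -1.88 ± 0.19 for Yox1 (limma adjusted p = 5.29e-07) and -2.32 ± 0.19 for Yox1-9A (adjusted p = 9.09e-09). YHP1 differed likewise between the Yhp1 strains, by -1.44 ± 0.13 (adjusted p = 1.7e-08), and between the Yhp1-13A strains, by -1.02 ± 0.13 (adjusted p = 1.44e-05).

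At the same time point no sirtuin gene met the call rule, while 0.112%, 0.32%, 0.144% and 0.144% of all genes did for Yox1, Yox1-9A, Yhp1 and Yhp1-13A. At an unadjusted p under 0.05 in limma the counts were 1, 2, 0 and 0 of the 5 genes, against 384 and 557 of 6255 genes in the yox1 table and 462 and 238 of 6230 genes in the yhp1 table. HST2 was at 120.5 to 136.1 TPM in the 6 inducible libraries of the yox1 table, against 96.0 to 109.2 TPM in the 6 control libraries. These groups did not overlap, and the share of all genes that do not was not computed. The HST2 difference was 0.25 ± 0.08 for Yox1 (adjusted p = 0.26) and 0.29 ± 0.08 for Yox1-9A (adjusted p = 0.0888), and neither passed the test. HST4 was at 11.8 to 18.3 TPM in the inducible libraries, against 8.13 to 14.7 TPM in the controls, with differences of 0.31 ± 0.16 (95% interval -0.02 to 0.64, adjusted p = 0.887) and 0.36 ± 0.16 (0.03 to 0.69, adjusted p = 0.514). In the yhp1 table the HST4 differences were 0.07 ± 0.11 and 0.19 ± 0.11, and the 8 other values of SIR2, HST1, HST2 and HST3 lay between 0.03 and 0.17. These 0 min libraries also enter the induction contrasts above.

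Whether loss of the Cdk1 sites changes sirtuin levels when the repressor is made from its own promoter was examined in the control strains. HST4 averaged over the 3 times differed by -0.34 ± 0.09 between the Yox1-9A and Yox1 controls (95% interval -0.53 to -0.15, adjusted p = 0.416) and by -0.21 ± 0.07 between the Yhp1-13A and Yhp1 controls (-0.35 to -0.08, adjusted p = 1). At 0 min alone the differences were -0.33 ± 0.16 and -0.16 ± 0.11. The direction was the same at all 3 times in both pairs, with means of 10.4, 13.4 and 9.08 TPM in the Yox1-9A control, against 13.1, 16.2 and 12.4 TPM in the Yox1 control, and of 10.2, 13.5 and 8.64 TPM in the Yhp1-13A control, against 11.5, 16.7 and 10.02 TPM in the Yhp1 control. SIR2 averaged over the times differed by -0.24 ± 0.07 between the Yox1-9A and Yox1 controls (adjusted p = 0.506). The fit treats the libraries of the 3 times as independent. Same-numbered libraries of a strain had deviations that correlated across times (median r 0.23 and 0.28 in the yox1 and yhp1 tables). The errors and intervals of these averages may therefore be too small, and the same direction at 3 times is not 3 separate observations.

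None of the 5 genes met the call rule in these 4 contrasts, and neither did any other gene (0% of all genes tested). Unadjusted p under 0.05 in limma were found for 1 and 2 of the 5 genes between the Yox1-9A and Yox1 controls, at 0 min and over the 3 times, and for 82 and 427 of 6255 genes. Between the Yhp1-13A and Yhp1 controls they were found for 0 and 1 of the 5 genes, and for 40 and 62 of 6230 genes. The counts over the 3 times carry the limit on independence given above.

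The genes whose levels followed HST4 most closely over the 36 libraries of the yox1 table were MCM5 (Pearson r = 0.99), MCM7 (0.98), MSA1 (0.98), MCM3 (0.98), PIG1 (0.98), MCM2 (0.98), MCM6 (0.98) and SKN1 (0.97). Of these, 5 encode subunits of the Mcm2 to Mcm7 helicase that is loaded on replication origins, and Msa1 is an activator of transcription in G1. PIG1 encodes a likely regulatory subunit of the protein phosphatase Glc7 and SKN1 a protein of cell wall glucan synthesis. MCM5 was at 0.540 to 1.98 TPM in the 12 induced libraries, against 20.6 to 39.9 TPM in the 24 others. Like HST4, each of these genes had its highest induced library below its lowest other library, and the coefficients mainly describe this step. Group means gave 6 of the same 8 genes and ranks 2 of them.

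Long-form Mcm1 matches were found upstream of 6 of these 8 genes, and of 1.6% of all windows. MCM5 and PIG1 are divergent neighbours that share 1 of these stretches, which is read from opposite strands. In MCM3, as in HST4, a homeodomain core stood 2 bases before the match. The homeodomain core was present in 4 of the 8 windows, near its share of 43.9% of all windows. The forkhead core was in 0 of 8, against 8.52%, and the Mcm1 core in 8 of 8, against 39.7%. The 8 genes were picked by likeness to HST4 in these same libraries, so the counts are a description only. Some of the stretches are listed below HST4 for comparison, again with the long form in capitals.

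HST4: ttacgTTTCCTAAAAGGGGAAaacag

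MCM3: ttactTTTCCTAAATGGGTAAaaact

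MCM5: gcgtgTTTCCCTTTTAGGAAAagtga

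PIG1: tcactTTTCCTAAAAGGGAAAcacgc

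MCM6: ttaaaTTTCCTTTTTAGGAAAagcgc

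MSA1: ttattTTTCCCTAATAGGAAAtccct

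The MCM3 stretch is chrV:86747-86772, the MCM5 and PIG1 stretch chrXII:691396-691421, the MCM6 stretch chrVII:121065-121090 and the MSA1 stretch chrXV:449053-449078. MCM2 and SKN1 held Mcm1 cores without the long form. A match is a description of letters and not evidence of a bound site.

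**Figure D5:**
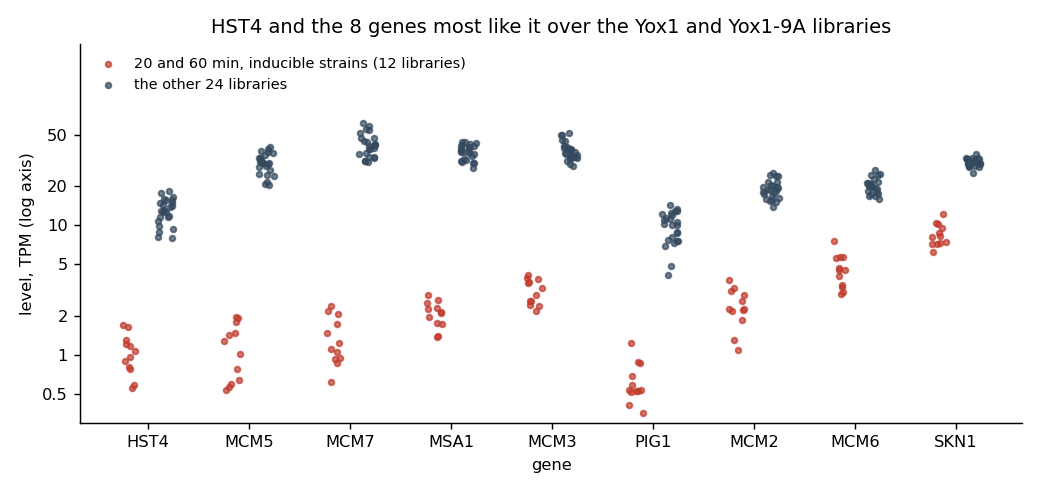
Levels in TPM (log axis) of HST4 and the 8 genes most like it, in the 12 libraries taken 20 or 60 min after induction of Yox1 or Yox1-9A (red) and in the 24 other libraries of the yox1 table (dark). No red point of a gene overlaps its dark points. The gap is widest for MCM7, at medians of 1.18 and 41.2 TPM, and narrowest for SKN1, at 8.22 and 30.5 TPM.

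The other sirtuin genes had different companions. HST2 was most like SCW10 (r = 0.92), a cell wall protein gene, TUB4 (0.90), which encodes γ-tubulin, and ALG14 (0.90), an enzyme subunit of N-glycosylation. HST3 was most like SWI5 (0.95), FKH2 (0.93) and CTK3 (0.92). Swi5 is a transcription factor of late mitosis, Fkh2 a forkhead factor of genes transcribed at entry into mitosis, and Ctk3 is a subunit of a kinase of RNA polymerase II. HST1 followed RPN1 (0.97), ASG1 (0.97) and SLY1 (0.97), and SIR2 followed OAZ1 (0.88), YBR242W (0.88) and RRP4 (0.86). Rpn1 is a proteasome subunit, Sly1 a factor of vesicle fusion, Oaz1 the antizyme of ornithine decarboxylase and Rrp4 an exosome subunit. These companions depended on the measure, since group means named 2 of the same 3 genes for HST2, 1 of 3 for HST3 and for HST1 and 0 of 3 for SIR2, and ranks named 1, 1, 1 and 2 of 3.

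In the inductions, genes that work with or against the sirtuins met the call rule only at 60 min of Yox1 and Yox1-9A. Of 65 related genes in 8 lists, 59 were expressed enough to be tested. None of the 59 met the call rule at 20 min of Yox1 or Yox1-9A, with 5 and 2 at an unadjusted p under 0.05 in limma, against 497 and 485 of all 6255 genes. None met it at 20 or 60 min of Yhp1, with 3 and 0 at unadjusted p against 106 and 197 of all 6230 genes, or of Yhp1-13A, with 1 and 3 against 115 and 220. At 60 min 6 of the 59 were lower with Yox1 and 4 with Yox1-9A, where 2.75% and 4.33% of all genes met the rule in either direction. None was higher, and 10 and 13 were at unadjusted p against 689 and 1100 of all genes. The same shares apply to the single lists below, and those of the other inductions are given above.

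In the H3K56 list, 1 of 10 genes was called lower at 60 min of Yox1 and 2 at 60 min of Yox1-9A. ASF1, the histone chaperone that presents H3 for H3K56 acetylation, averaged 28.6 ± 2.6, 19.0 ± 4.1 and 11.4 ± 0.98 TPM at 0, 20 and 60 min in the inducible Yox1 strain, and 24.6 ± 0.74, 25.8 ± 3.1 and 23.3 ± 3.2 TPM in its control (SD, n = 3 each). At 60 min ASF1 differed by -1.17 ± 0.19 with Yox1 (limma adjusted p = 0.000105) and by -1.03 ± 0.19 with Yox1-9A (adjusted p = 4e-04). RLF2, the large subunit of the chromatin assembly factor CAF-1, differed by -0.67 ± 0.13 at 60 min of Yox1-9A (adjusted p = 0.00109). The other members of the list were not called.

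The histone genes were lower at 60 min of Yox1. HHT1 (-0.76 ± 0.15, limma adjusted p = 0.00142), HHT2 (-0.84 ± 0.20, 0.00863), HHF1 (-0.98 ± 0.17, 0.000309) and HHF2 (-0.79 ± 0.11, 6.13e-06), which encode histones H3 and H4, all met the call rule. At 60 min of Yox1-9A none of the 4 was called, at -0.43 or above. The copies of each histone are nearly identical, so reads may have been split between them, and poly-A RNA was depleted according to the labels but purified according to the published protocol.

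Among the sporulation genes that Sum1 and Hst1 repress in vegetative cells, 5 of 8 were tested. SPS2 was lower at 60 min of Yox1 (-0.68 ± 0.19, limma adjusted p = 0.0396) and of Yox1-9A (-0.87 ± 0.19, adjusted p = 0.00276), and SPS4 was lower at 60 min of Yox1-9A (-1.21 ± 0.28, adjusted p = 0.00448). SPS2 was low, at 2.20 to 3.53 TPM in the libraries with induced Yox1 or Yox1-9A and 2.58 to 5.96 TPM in the others of that table, so the ranges overlapped. At 0 min 2 and 3 of the 5 genes had an unadjusted p under 0.05 in limma between the inducible and control strains of Yox1 and Yox1-9A. Those libraries enter the subtraction. No gene of this list was called higher in an induction.

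No gene of the silencing and rDNA partners of Sir2, the Hst1 complexes, the NAD+ pathway, the zinc-dependent deacetylases or the silent mating cassettes was called in any induction. Only 1 of the 4 silent cassette genes was expressed enough to be tested, so silencing of the cassettes was not examined. In the Yox1, Yox1-9A, Yhp1 and Yhp1-13A controls at 20 min, 6, 5, 6 and 6 of the 15 NAD+ genes were called higher and none lower, against 7.99%, 7.1%, 7.58% and 7.08% of all genes tested that were called higher. The others did not pass. In the same controls 1, 2, 2 and 1 of the 12 silencing and rDNA genes, 0, 0, 2 and 2 of the 4 histone genes and 1 of the 5 sporulation genes each time were called lower. Of all genes, 15.6%, 16%, 19.2% and 17.4% were called there in either direction, and nothing is read from the counts called lower. In the Hst1 complexes 1 of 8 genes was called higher in the Yhp1 control and 1 of 8 in the Yhp1-13A control. PNC1, the nicotinamidase that clears an inhibitor of Sir2, was named after its values were seen. It averaged 131.4 ± 27.8, 524.2 ± 97.7 and 221.2 ± 31.5 TPM at 0, 20 and 60 min in the inducible Yox1 strain, and 124.9 ± 40.3, 613.1 ± 42.8 and 264.4 ± 54.0 TPM in its control (SD, n = 3 each). In the yhp1 table its 60 min means were below its 0 min means, at 305.0 ± 109.5, 499.9 ± 159.9 and 205.0 ± 6.9 TPM in the inducible Yhp1 strain, and 263.0 ± 112.1, 588.1 ± 183.8 and 203.4 ± 7.9 TPM in its control. The log2 change of PNC1 at 20 min was 2.33 ± 0.23 in the Yox1 control and 1.22 ± 0.40 in the Yhp1 control (SE), with the difference between them not tested. HMRA1, the a1 gene of the silent HMR cassette, cannot be told apart from the active copy at MAT in these MATa cells.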

How the data were processed

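RNA was sequenced from 72 libraries of 8 strains at 3 times, described by the submitters as biological replicates, and the authors deposited one table of 36 libraries for the yox1 strains and one for the yhp1 strains. The deposited values are TPM, made by the authors from reads mapped to the R64 build; the submitters' processing notes name STAR 2.5.3a and featureCounts 1.5.2, and no source used here states the strand setting. Each library summed to 999744 to 999841 TPM, so the read depth behind a value is unknown and no counting error can be given.

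A gene entered the tests where its mean level in a table reached 1 TPM, which left 6255 genes for yox1 and 6230 for yhp1. Values were fitted as log2(TPM + 1) with limma 3.58.1 in R 4.3.3, with 1 mean per strain and time and Benjamini-Hochberg adjustment over all genes of a contrast. The members and gene lists were chosen with earlier results of these data known. Named genes were the 5 members, YOX1 and YHP1, their flanking genes, every related gene that met the call rule in an induction, and the 8 genes most like HST4 or 3 most like each other member by Pearson correlation of log2(TPM + 1) over the 36 yox1 libraries. PNC1, HMRA1 and the mating-type markers are named outside this rule. Alternatives were pseudocounts of 0.1 and 5, no filter on low values or a mean of at least 5 TPM, centring on a common median, a replicate block, a fit to the groups of the contrast alone and leaving out each library. The fit was tested on simulated data in which libraries were drawn independently, so that test does not cover errors shared between libraries. Motifs and sequences were read from the RefSeq R64 genome.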

Additional observations from a re-analysis of the deposited data

How the results depend on the processing

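The size of the HST4 difference, whose contrasts chose the gene, depended on the pseudocount, which by construction shrinks changes of low values. With 0.1 in place of 1 the HST4 differences were -3.79 and -3.62 at 20 and 60 min of Yox1 and -4.04 and -4.01 for Yox1-9A, and with 5 they were -1.98, -1.74, -1.88 and -1.58. With 5 the value at 20 min of Yhp1-13A was -0.46. Leaving out 1 library gave -3.44 to -3.07 at 20 min and -3.19 to -2.82 at 60 min of Yox1-9A. Between 0 and 1 sirtuin genes were then called at 20 min of Yhp1-13A, and HST2 at 0 min of Yhp1-13A ranged from -0.033 to 0.22, with the sign reversed, at -0.033, without replicate 1 of the control. The count of related genes at 20 min of Yox1 was 1 with no filter, 1 with the replicate block and 0 to 1 without 1 library. At 20 min of Yox1-9A it was 1 with the common median and 0 to 1 without 1 library, at 60 min of Yox1-9A it was 2 with a pseudocount of 5, and at 60 min of Yhp1-13A it was 1 with the replicate block and 0 to 1 without 1 library. Other causes were not tested. Same-numbered libraries of a strain at different times had deviations that correlated above 0.1 in 30 of 36 pairs of the yox1 and 31 of 36 of the yhp1 table (median r 0.23 and 0.28), and those of different strains in 99 of 162 and 142 of 162 pairs (median r 0.16 and 0.34), against medians of -0.087 and -0.20 for other numbers in different strains. This hints at shared numbers, most in the yhp1 table, but not every pair passed 0.1 and no label gives a pairing. The numbers were therefore not taken to pair the samples. Pairs of different strains were pooled over like and unlike times, so pairing within a time was not examined. The block changed no call of a sirtuin gene, but it is a single offset per number over all groups. It cannot take up a shift shared within one time, so the unchanged calls do not settle whether pairing matters. Depth is unknown, which limits what can be said of HST4 near 1 TPM.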
